A study of Homo sapiens with 6 samples.

Results

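The genes HDAC3 to HDAC11 encode the zinc-dependent histone deacetylases that are not subunits of NuRD, the chromatin remodelling and deacetylase complex that contains MTA2, HDAC1 and HDAC2. All array rows whose deposited symbol is HDAC3, HDAC4 and so on to HDAC11 were taken. This gave 9 genes of 19148 on the array and 26 array rows of 34558, each row standing for 1 RefSeq transcript. HDAC3, HDAC4 and HDAC6 had 1 row each, HDAC5, HDAC7, HDAC10 and HDAC11 had 2, HDAC8 had 6 and HDAC9 had 9.

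RNA came from KYSE30, an established cell line from a human squamous carcinoma of the oesophagus. Samples 4 to 6 were transfected with an siRNA against MTA2 and samples 1 to 3 with a negative control siRNA. Both groups received siRNA for 48 h with Lipofectamine, at a dose printed in the labels as 20 nmol/ml, and both were grown in RPMI medium with serum and penicillin. One siRNA sequence was used against MTA2. Separate cultures are not stated for the 3 samples per group, so the spread behind each p-value may be technical. The values are log2 normalised intensities from 1-colour arrays, on which a difference of 1 is a 2-fold change. The dye field of the labels names Cy5 for samples 4 and 6 and Cy3 for sample 5 among the MTA2 siRNA samples. Among the controls it names Cy5 for sample 2 and Cy3 for samples 1 and 3. Each difference within a dye below therefore sets 1 sample against 2. How 2 dye names go with 1-colour arrays was not settled, so dye below means what this field says.

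The siRNA strands define the groups, so the antisense (guide) strands are shown, 5′ to 3′ as the labels give them. The capitals mark the seed, bases 2 to 8, through which an siRNA can also pair with transcripts other than its target.
MTA2 siRNA antisense: aUAGACGUaaucucccacctt
control siRNA antisense: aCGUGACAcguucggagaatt

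Histone deacetylases remove acetyl groups from lysines of histones and of many other proteins. HDAC3 and HDAC8 are class I enzymes, like the NuRD subunits. HDAC4, HDAC5, HDAC7 and HDAC9 form class IIa: they bind MEF2 transcription factors, leave the nucleus on 14-3-3 proteins after phosphorylation, and have little deacetylase activity of their own. HDAC6 and HDAC10 are class IIb and act largely in the cytoplasm, and HDAC11 alone forms class IV. Most HDAC inhibitors in clinical use, given against some lymphomas, act on class I enzymes, and several also on HDAC6.

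The array did not show the target lower. MTA2 read 13.12, 13.18 and 13.52 in the samples labelled MTA2 siRNA, against 12.92, 13.13 and 13.004 in the controls, a difference of 0.26 (95% interval -0.16 to 0.67, limma adjusted p = 0.943). Directions below therefore refer to the samples as labelled. The 6 columns had medians of 10.44 to 10.45. Sample 4 and control sample 1 held 271 and 375 readings under 5, against 29 and 79 in the other MTA2 siRNA samples and 87 and 80 in the other controls. Of the 4 marker lists of other cell types, 2 averaged below the list of the labelled squamous epithelium in every sample and 2 above it. The 10 squamous markers averaged 10.95 to 11.16 in the samples labelled MTA2 siRNA and 11.07 to 11.24 in the controls. The 8 leukocyte markers averaged 9.88 to 10.38 in the samples labelled MTA2 siRNA and 10.21 to 10.40 in the controls. The 7 fibroblast markers averaged 10.63 to 10.71 in the samples labelled MTA2 siRNA and 10.21 to 10.67 in the controls. The 8 neuron and muscle markers averaged 11.89 to 12.34 in the samples labelled MTA2 siRNA and 12.04 to 12.19 in the controls. The 7 endothelial markers averaged 11.94 to 12.004 in the samples labelled MTA2 siRNA and 11.36 to 11.88 in the controls. Intensity alone therefore does not say whether an HDAC gene was expressed, and no detection call was used.

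None of the 9 HDAC genes passed the test between the groups. Of the 9 genes, 3 read higher and 6 lower in the samples labelled MTA2 siRNA, and limma called 0 of 9 at an adjusted p of 0.05 (0 of 9 also had an unadjusted p under 0.05). Across the array 0.0% of genes were called, and 3.75% had an unadjusted p under 0.05. The median difference of the 9 genes was -0.030, beside 0.029 over all genes. Differences ran from -0.36 for HDAC11 to 0.34 for HDAC8. A 2-fold change up or down lay outside the 95% interval of 7 of the 9 genes and of 78.9% of all genes, while the intervals of HDAC4 and HDAC8 were wider. Among single rows it lay outside the interval of only 12 of the 26 HDAC rows, beside 71.0% of all rows. The groups did not overlap for HDAC11 alone, that is 1 of 9 genes, and it was lower. Across the array they did not overlap for 9.43% of genes, both directions counted, and 4.0% of all genes were lower without overlap. Of the 26 rows, 13 read higher and 13 lower. Limma called 0 of 26 rows (0.0% of all rows), and 3 had an unadjusted p under 0.05 (3.67% of all rows), all of them HDAC8 rows.

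**Figure D1:**
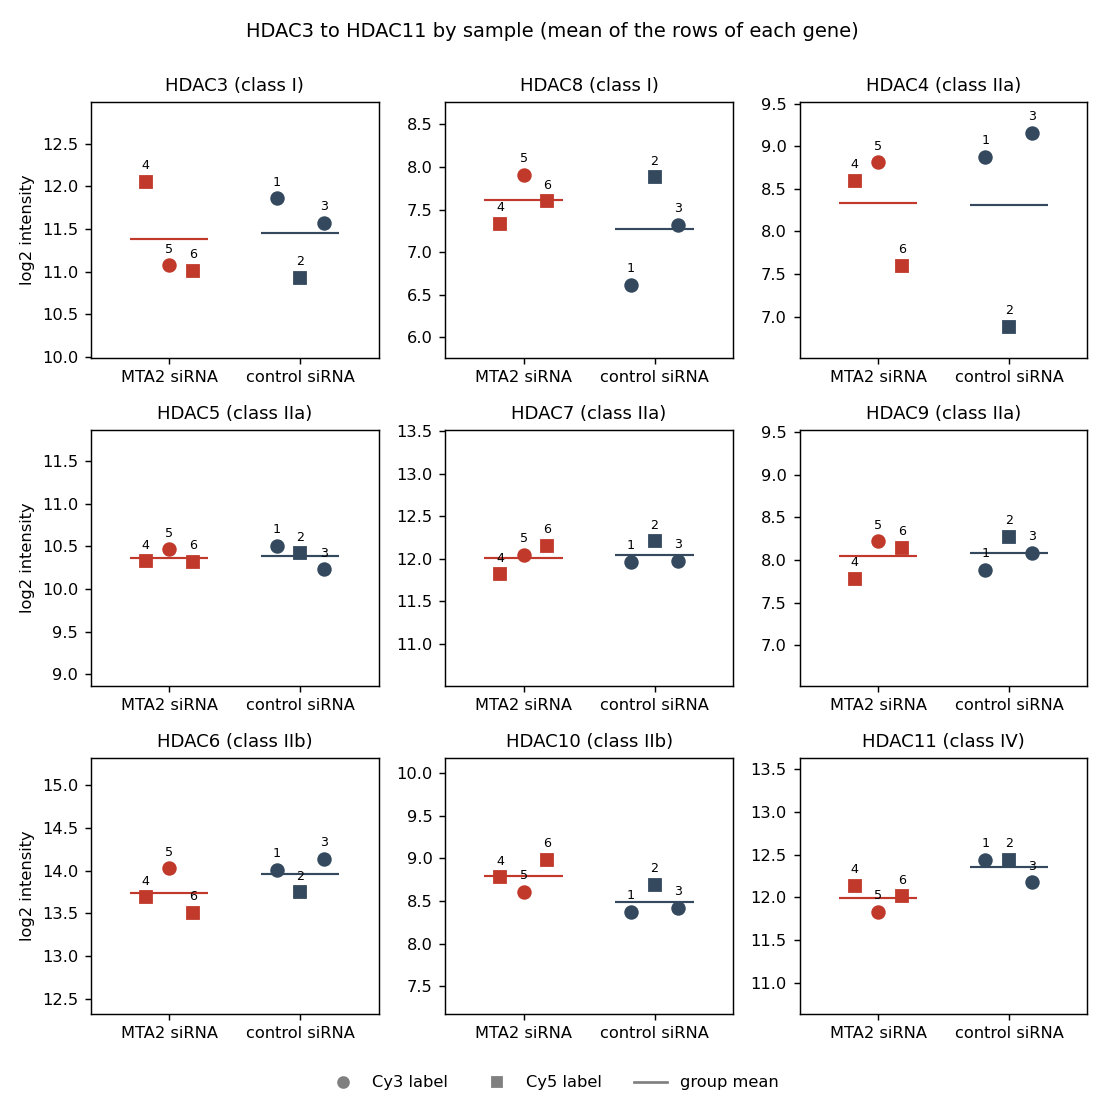
Log2 intensity (y axis, each panel spanning 3 units) of the 9 HDAC genes in each sample, as the mean of the rows of a gene. The samples labelled MTA2 siRNA are at left in red and the controls at right in dark blue, with circles for Cy3, squares for Cy5, sample numbers beside the points and a line at each group mean; for HDAC11 alone all samples of one group lie below all of the other.

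Class I was read through HDAC3, the catalytic subunit of the NCoR/SMRT co-repressors, and HDAC8, which deacetylates the cohesin subunit SMC3. HDAC3 read 12.05, 11.07 and 11.01 in samples 4, 5 and 6, labelled MTA2 siRNA, against 11.86, 10.93 and 11.57 in controls 1, 2 and 3. Each group held high and low samples, and the groups overlapped. HDAC3 differed by -0.076 (SE 0.36, 95% interval -0.92 to 0.77, limma adjusted p = 0.981). It was -0.64 within Cy3 and 0.60 within Cy5, and -0.41 without sample 4, so its direction was not settled. The SD within groups was 0.53 for HDAC3, against a median of 0.26 for genes of like level (the same decile of the array).

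Of the 6 HDAC8 rows, the 2 bright ones and 1 dim one read lower in the samples labelled MTA2 siRNA, and the other 3 dim rows read higher. The row of NM_018486 read 9.92, 10.67 and 9.94 in samples 4, 5 and 6, labelled MTA2 siRNA, against 11.57, 11.12 and 10.59 in controls 1, 2 and 3. The row of NM_001166418 read 9.86, 10.67 and 9.68 in the samples labelled MTA2 siRNA, against 10.63, 10.997 and 11.20 in the controls. In both rows samples 4 and 6, the Cy5 samples of their group, lay below all controls, and sample 5, the Cy3 sample, overlapped them.

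The difference was -0.92 for NM_018486 (SE 0.32, interval -1.68 to -0.16), which is 0.530 times the control level. For NM_001166418 it was -0.87 (SE 0.31, interval -1.59 to -0.15). Limma gave an unadjusted p of 0.0245 and 0.0244 for these rows and an adjusted p of 0.967 for both. Among all rows 1.95% were lower at an unadjusted p under 0.05. For NM_018486 and NM_001166418 the differences were -0.41 and -0.24 within Cy3, -1.19 and -1.23 within Cy5, and -0.80 and -0.73 once dye was a block. Within a dye 1 sample is set against 2, so dye cannot be told apart from single samples here. Cy5 minus Cy3 was -0.34 and -0.41 for these rows (limma adjusted p = 0.618 and 0.506). Without sample 4 and control sample 1 together, the difference was -0.55 for NM_018486 and -0.92 for NM_001166418.

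The other 4 HDAC8 rows lay in the lowest 3.80% of array rows by level, at the dim end of the scale. The dimmest, NM_001166420, read 4.47, 6.60 and 5.42 in the samples labelled MTA2 siRNA, against -0.13, 4.37 and 3.14 in the controls. All 3 of the first group lay above all 3 controls, while 5.07% of all rows were higher without overlap. Its difference was 3.04 (SE 1.11, limma adjusted p = 0.967), and it was 5.10 within Cy3, where control sample 1 is the lowest reading, and 0.57 within Cy5. It was 1.74 without control sample 1, and 2.25 without sample 4 and control sample 1. NM_001166419 read 6.55, 6.30 and 6.46 in the samples labelled MTA2 siRNA, against 4.43, 6.45 and 5.93 in the controls, so only control sample 1 stood well below the rest. NM_001166422 differed by 0.57, and by 1.11 between the dyes (Cy5 minus Cy3, limma adjusted p = 0.197). NM_001166448 differed by -0.62, and by -0.12 without sample 4 and control sample 1. Sample 4 gave the lowest reading in 2 of the 6 HDAC8 rows and control sample 1 in 2 others. These are the 2 samples with most readings under 5 on the whole array, and the part of that low tail in the HDAC8 differences was not tested.

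The mean of the 6 HDAC8 rows therefore had the opposite sign to its bright rows. It read 7.33, 7.91 and 7.60 in the samples labelled MTA2 siRNA, against 6.62, 7.88 and 7.32 in the controls. Its difference was 0.34 (SE 0.33, interval -0.45 to 1.12, limma adjusted p = 0.943). Taking the brightest row turned it to -0.92, and leaving out control sample 1 brought it to 0.013. The sign for HDAC8 thus depended on which rows were used.

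**Figure D2:**
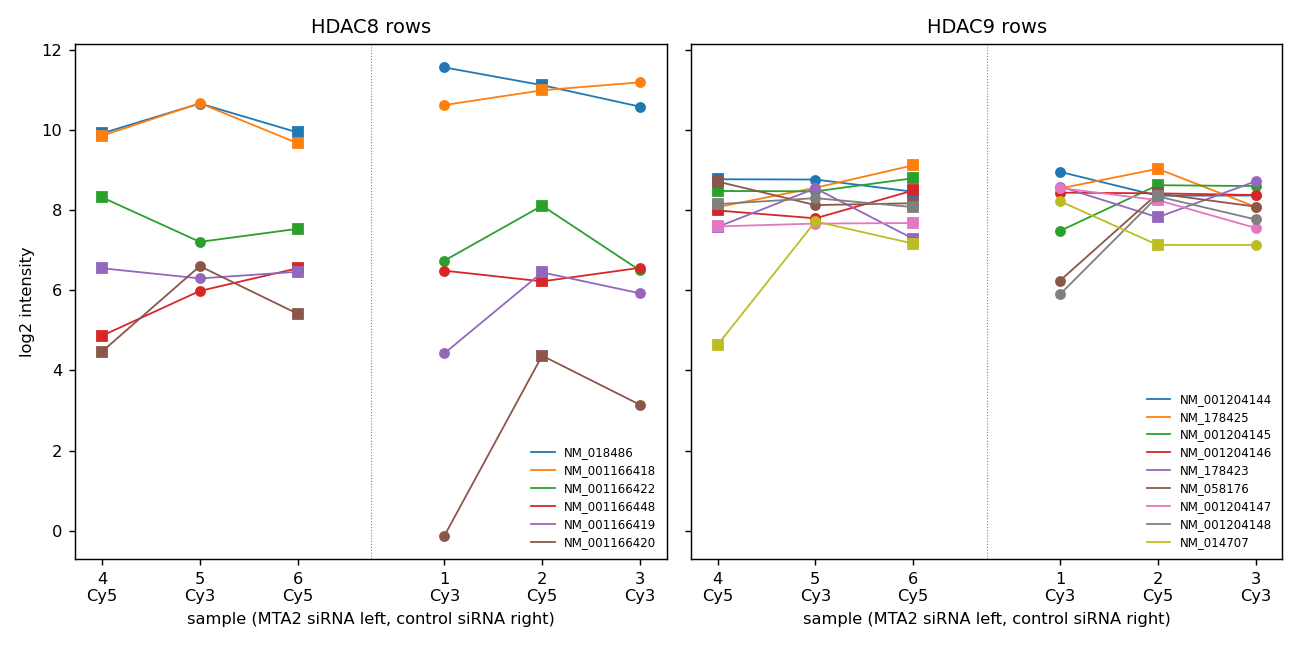
Log2 intensity (y axis) of the 6 HDAC8 rows and the 9 HDAC9 rows in each sample (x axis, the samples labelled MTA2 siRNA left of the controls, with the dye under each number). Lines join the readings of 1 row within a group, in which samples have no order; the 2 bright HDAC8 rows read lower in samples 4 and 6, and the lowest HDAC8 reading is in control sample 1 and the lowest HDAC9 reading in sample 4.

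Class IIa gave no difference beyond the spread between samples. HDAC4, a repressor of MEF2 in muscle and of chondrocyte maturation in the skeleton, had 1 row, in the lowest 9.85% of the array. It read 8.59, 8.81 and 7.60 in samples 4, 5 and 6, labelled MTA2 siRNA, against 8.88, 6.88 and 9.16 in controls 1, 2 and 3. All 3 Cy5 samples, which include sample 6 and control sample 2 with the lowest readings, lay below all 3 Cy3 samples. The share of all genes or rows that separate by dye in this way was not counted. The difference was 0.028 with a wide interval of -1.45 to 1.505 (limma adjusted p = 0.996). It was -0.21 within Cy3, 1.21 within Cy5, 0.50 in the fit that has dye as a block and -0.68 without control sample 2.

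HDAC5 and HDAC7 were measured more tightly. HDAC5, a signal-responsive repressor in heart and muscle, read 10.32, 10.47 and 10.31 in the samples labelled MTA2 siRNA, against 10.50, 10.42 and 10.23 in the controls. Its difference was -0.016 (interval -0.38 to 0.35, limma adjusted p = 0.988), and its 2 rows differed by -0.060 and 0.028. HDAC7, known for its role in endothelial and lymphoid cells, read 11.82, 12.05 and 12.15 in the samples labelled MTA2 siRNA, against 11.96, 12.21 and 11.98 in the controls. Its difference was -0.043 (interval -0.44 to 0.35, limma adjusted p = 0.979). The HDAC7 rows did not share a sign, with 0.12 for NM_015401 and -0.21 for NM_001098416, in which sample 4 read 10.74 and the other 5 samples 11.21 to 11.49. Without sample 4 and control sample 1 the second row differed by -0.020.

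HDAC9, whose locus also makes the truncated repressor MITR without a deacetylase domain, read 7.78, 8.22 and 8.14 in the samples labelled MTA2 siRNA, against 7.88, 8.27 and 8.08 in the controls. The groups overlapped, and the difference was -0.030 (interval -0.48 to 0.42, limma adjusted p = 0.985). Its 9 rows all lay in the lowest 13.2% of the array, and 5 read higher and 4 lower, with differences from -0.99 to 0.84. The extremes rested on single samples. NM_014707 read 4.64, 7.72 and 7.17 in samples 4, 5 and 6, labelled MTA2 siRNA, against 8.23, 7.13 and 7.13 in the controls. Its difference of -0.99 became 0.31 without sample 4 and control sample 1. NM_001204148 read 8.15, 8.30 and 8.08 in the samples labelled MTA2 siRNA, against 5.90, 8.35 and 7.77 in the controls. Its difference of 0.84 became 0.13 without those 2 samples, and that of NM_058176 went to -0.10 from 0.76. NM_178423 instead read 7.58, 8.55 and 7.29 in samples 4, 5 and 6, labelled MTA2 siRNA, against 8.59, 7.82 and 8.72 in the controls. The 3 lowest of these 6 readings are the Cy5 samples. The dye difference was -0.97 (limma adjusted p = 0.125), the smallest adjusted p between dyes among the 26 HDAC rows, and was not called. Between the dyes 0.347% of all rows were called.

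**Figure D3:**
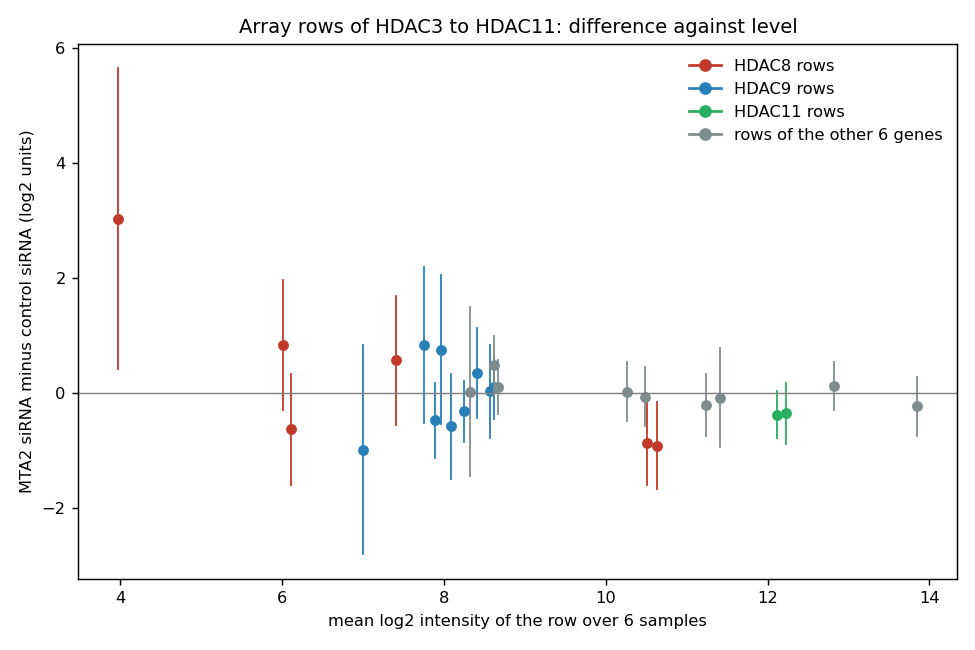
Difference between the groups (y axis, MTA2 siRNA minus control siRNA, log2 units, bars are limma's 95% intervals) for the 26 HDAC rows against the mean log2 intensity of the row over 6 samples (x axis). Intervals widen towards the dim end, where the differences run from -0.99 to 3.04.

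Class IIb comprised HDAC6, the tubulin deacetylase, and HDAC10, which deacetylates acetylated spermidine. HDAC6 read 13.68, 14.03 and 13.50 in samples 4, 5 and 6, labelled MTA2 siRNA, against 14.01, 13.75 and 14.14 in controls 1, 2 and 3. All 3 Cy5 samples read below all 3 Cy3 samples. Across the array, 17.9% of genes had a limma unadjusted p under 0.05 between the dyes. The difference between the siRNA groups was -0.23 (SE 0.20, interval -0.70 to 0.25, limma adjusted p = 0.943), and it was -0.050 within Cy3, -0.15 within Cy5 and, taking dye as a block, -0.10. Between the dyes HDAC6 differed by -0.38 (Cy5 minus Cy3, interval -0.73 to -0.028, limma adjusted p = 0.253). HDAC1, the NuRD deacetylase, differed by -0.36 between the dyes and by -0.17 between the siRNA groups (interval -0.63 to 0.30).

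HDAC10 read 8.78, 8.61 and 8.98 in the samples labelled MTA2 siRNA, against 8.37, 8.69 and 8.42 in the controls. Samples 4 and 6 lay above all controls and sample 5 below control sample 2. The difference was 0.30 (SE 0.18, interval -0.12 to 0.72, limma adjusted p = 0.943), or 0.20 with dye as a block. Both rows read higher, by 0.48 for NM_001159286 and 0.11 for NM_032019, in the lowest 13.9% of the array. The HDAC10 difference was 0.21 within Cy3 and 0.19 within Cy5.

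HDAC11 removes long fatty acyl groups from lysines, for example on the serine hydroxymethyltransferase SHMT2. It was lower in every sample labelled MTA2 siRNA than in any control, but limma did not call it. It read 12.13, 11.83 and 12.01 in samples 4, 5 and 6, labelled MTA2 siRNA, against 12.44, 12.44 and 12.18 in controls 1, 2 and 3. The means were 11.99 ± 0.15 in the samples labelled MTA2 siRNA and 12.35 ± 0.15 in the controls (SD, n = 3 each). The difference was -0.36 (SE 0.17, interval -0.76 to 0.033, limma adjusted p = 0.943), which is 0.778 times the control level. The exact permutation test gave a two-sided p of 0.10, the smallest that 3 against 3 samples allow.

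Both HDAC11 rows read lower by like amounts. NM_024827 read 12.05, 11.82 and 11.89 in the samples labelled MTA2 siRNA, against 12.26, 12.35 and 12.29 in the controls, with no overlap and a difference of -0.38 (SE 0.17, limma adjusted p = 0.967). Among all rows 3.76% were lower without overlap. NM_001136041 read 12.21, 11.83 and 12.13 in the samples labelled MTA2 siRNA, against 12.61, 12.53 and 12.07 in the controls, a difference of -0.35 (SE 0.22). In that row control sample 3 lay among the samples labelled MTA2 siRNA. The HDAC11 difference was -0.48 within Cy3, -0.37 within Cy5, -0.39 without sample 4 and control sample 1, and from -0.45 to -0.28 when any 1 sample was omitted. As the groups did not overlap for the gene, its sign was fixed in advance in each of these, and only the size could vary. The fit with dye as a block gave -0.43 (interval -0.80 to -0.055), with an unadjusted p of 0.0309 and a limma adjusted p of 0.874. In that fit 2.55% of all genes were lower at an unadjusted p under 0.05.

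**Figure D4:**
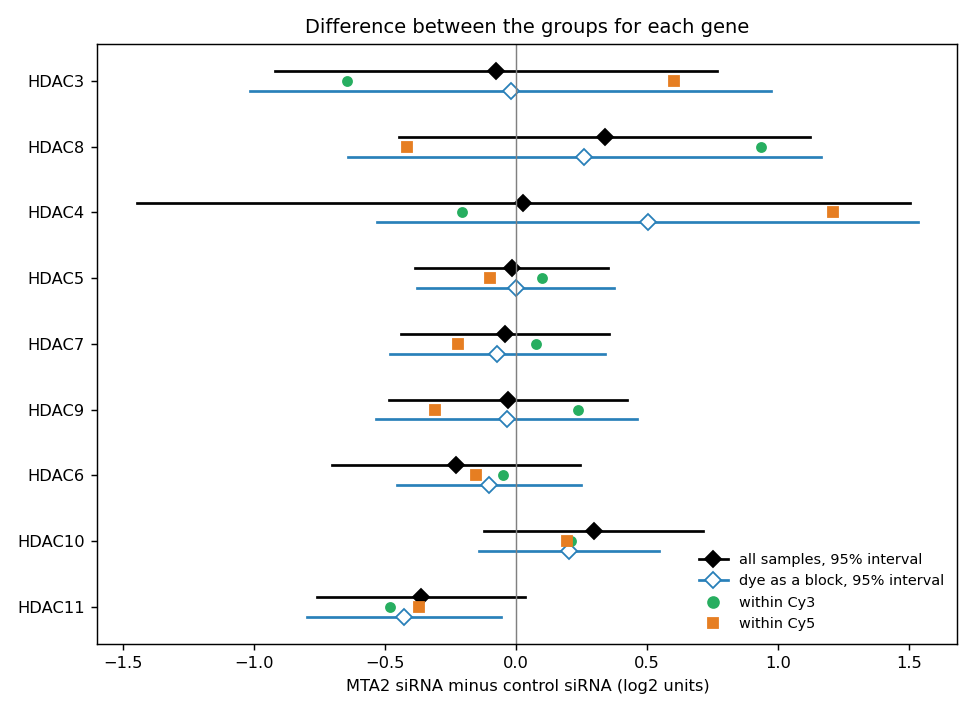
Difference between the groups (x axis, MTA2 siRNA minus control siRNA, log2 units) for the 9 HDAC genes, over all samples (filled diamonds) and with dye as a block (open diamonds), both with limma's 95% intervals, and within each dye (circles Cy3, squares Cy5). HDAC6, HDAC10 and HDAC11 keep their sign within both dyes, and the other 6 genes have opposite signs in the 2 dyes.

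HDAC8 and HDAC11, whose bright rows read lower, were picked after seeing the differences. Bright rows of other HDAC genes, such as HDAC3 and HDAC6, also read lower. The upstream sequences of HDAC8 and HDAC11 are unlike, and the 250 bases before each start site are printed for that contrast (RefSeq, GRCh38.p14, 5′ to 3′ on the strand of the gene). A link between upstream sequence and the differences was not tested. Capitals mark GC boxes, the letters GGGCGG on either strand, which Sp1 family factors can bind.
HDAC8, chrX:72572844-72573093, minus strand: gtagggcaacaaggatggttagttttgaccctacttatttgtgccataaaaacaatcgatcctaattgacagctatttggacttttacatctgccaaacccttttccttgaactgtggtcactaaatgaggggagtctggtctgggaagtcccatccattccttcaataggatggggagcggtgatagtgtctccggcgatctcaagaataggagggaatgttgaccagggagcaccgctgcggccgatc
HDAC11, chr3:13480056-13480305, plus strand: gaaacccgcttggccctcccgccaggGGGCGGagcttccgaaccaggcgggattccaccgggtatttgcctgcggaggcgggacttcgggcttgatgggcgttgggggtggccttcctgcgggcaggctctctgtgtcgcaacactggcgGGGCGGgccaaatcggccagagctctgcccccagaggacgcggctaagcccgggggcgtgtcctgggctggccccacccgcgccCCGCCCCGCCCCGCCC
The HDAC8 window held 0 GC boxes, 7 CG dinucleotides and 48.0% G and C. The HDAC11 window held 5 GC boxes, some of which overlap at the downstream end, with 24 CG dinucleotides and 73.6% G and C. Of 35116 RefSeq windows of this length, 42.6% held a GC box. Windows were found for 8 of the 9 genes, all but HDAC5. Of these 18 windows, counting several starts of HDAC4, HDAC6 and HDAC9, 8 held a GC box and 0 the letters TATAAA on either strand, which 10.7% of all windows hold. A match is a string of letters, not evidence of binding.

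Between the dyes, 0 of the 9 HDAC genes passed an adjusted p of 0.05, where 0.345% of all genes did, and 0 of the 26 rows did, where 0.347% of all rows did. HDAC4 and HDAC6 had an unadjusted p under 0.05, that is 2 of 9, beside 17.9% of all genes. The HDAC4 difference was -1.42 (Cy5 minus Cy3, interval -2.46 to -0.39, limma adjusted p = 0.195). For the other 7 genes the dye differences ran from -0.17 for HDAC3 to 0.28 for HDAC10.

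Genes related to these enzymes by function also gave 0 calls, among 90 genes in 9 lists, 37 of them higher and 53 lower. HDAC1, HDAC2 and the sirtuins are counted among the 90. Of the 90 genes, 7 had an unadjusted p under 0.05 (7.78%, beside 3.75% of all genes), and for 6 the groups did not overlap (6.67%, beside 9.43%). Their median difference was -0.046. The limma adjusted p was 0.943 for each gene named next from these lists, except NCOR1 at 0.959 and HDAC2 at 0.997.

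For HDAC3, the 5 NCoR/SMRT subunits had a median difference of 0.066, with TBL1X, a WD-repeat subunit, at 0.13 and the scaffold NCOR1 at -0.096 (0.012 without control sample 3). For HDAC8, the 12 genes of cohesin and its acetylation cycle had a median of -0.067, with 4 higher and 8 lower. The cohesin ring subunit SMC1A read 9.20, 8.87 and 8.65 in the samples labelled MTA2 siRNA, against 8.68, 8.06 and 7.998 in the controls, with an overlap at one edge (difference 0.66, SE 0.25). STAG1, another cohesin subunit, differed by -0.80 (SE 0.31), but by -0.072 within Cy3 and -1.19 within Cy5.

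Among the 9 MEF2 factors and other class IIa partners the median difference was -0.0040. ANKRA2, an ankyrin-repeat protein that binds HDAC4, differed by -1.02 (SE 0.36; -0.48 within Cy3 and -1.03 within Cy5), and the co-repressor CTBP1 by -0.42. Leaving out sample 4 brought CTBP1 to -0.27, and leaving out control sample 2 to -0.28. The 13 class IIa kinases had a median of -0.036, with SIK1 at -0.44 (-0.17 without control sample 2). CAMK1 differed by -1.42, or by -0.39 without sample 4, which read 4.53. Of the 7 14-3-3 genes, 4 were higher and 3 lower. YWHAQ read 11.69, 12.11 and 11.94 in the samples labelled MTA2 siRNA, against 12.50, 13.36 and 12.70 in the controls, with no overlap (difference -0.94, SE 0.26). It was -0.49 within Cy3 and -1.55 within Cy5. YWHAH differed by 0.40, though by -0.016 within Cy3 and by 0.26 without sample 4.

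For HDAC6, 10 substrates and partners had a median of -0.17, with the microtubule-binding protein TPPP at 0.39 and the tubulin gene TUBA1C at 0.39. With each sample left out, TPPP ran from 0.26 (without control sample 2) to 0.66 (without control sample 3) and TUBA1C from 0.17 (without sample 6) to 0.58 (without sample 5). TUBA1C was 0.14 within Cy3 and 0.29 within Cy5. For HDAC10, 10 polyamine genes had a median of 0.014. ODC1, the rate-limiting enzyme of polyamine synthesis, read 11.01, 10.63 and 10.999 in the samples labelled MTA2 siRNA, against 10.44, 9.92 and 10.22 in the controls, with no overlap (difference 0.68, SE 0.20). It was 0.30 within Cy3 and 1.08 within Cy5. Spermine synthase, SMS, likewise did not overlap, at 0.56 (SE 0.21), or 0.32 in its brighter row and 0.36 without control sample 3. The 15 lysine acetyltransferases, which oppose the deacetylases, had 4 members higher and 11 lower and a median of -0.091, with EP300 at 0.65 (SE 0.25, no overlap) and KAT7 at -0.27 (-0.16 without sample 5). The NuRD deacetylase HDAC2 differed by -0.0048 (interval -0.37 to 0.36). Among the sirtuins, the NAD-dependent deacetylases, SIRT7 differed by -0.58 (-0.18 without sample 6) and SIRT3 by -0.30. SIRT3 was -0.11 without control sample 1, -0.43 within Cy3 and -0.023 within Cy5. The list that holds HDAC1, HDAC2 and the sirtuins, 9 genes together, had a median of -0.084.

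The genes with patterns nearest to the 3 most variable HDAC genes were sought among 9570 genes above the median level, by the root mean square (RMS) difference over 6 samples after subtracting the mean of each gene. For HDAC4, which ranged over 2.27, these were MRM2 (RMS 0.21) and VPS26C (0.26), both with their lowest reading in control sample 2. For HDAC8 they were COX5B (0.12) and PGGHG (0.17), both lowest in control sample 1. For HDAC3 they were RBX1 (0.090) and PABPC4 (0.11), both highest in sample 4. How near chance matches come among this many genes was not tested.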

How the data were processed

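The authors deposited log2 normalised intensities, 1 column per sample, in 2 tables that were identical in all 34558 rows. Per the labels' protocols, double-stranded cDNA was labelled with a 1-colour kit and the arrays were scanned on a GenePix scanner. Background correction, normalisation method and build: not given in the sources used here. Arrays have no read depth, and precision is limited by having 3 samples per group.

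Rows were named by RefSeq accession (33809 rows, all 26 HDAC rows among them), current symbol (462), older symbol (206) or deposited symbol (81). Rows of a gene were averaged on the log2 scale. Genes and rows were fitted with limma 3.58.1 in R 4.3.3 (lmFit, eBayes, two-sided) over all 6 samples with no covariate, adjusted by Benjamini-Hochberg over all features. Dye was fitted as a second term. Single values used exact permutation tests (SciPy 1.17.1). The fit was tested on simulated data.

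All 9 HDAC genes, their rows, MTA2, HDAC1 and HDAC2 are named, the 2 genes of smallest p from each of 9 lists, and the 2 nearest genes to the 3 most variable members. Members and lists were chosen with earlier results of these data known. Alternatives covered normalisation, dim genes, rows, variance, weights, dye and each sample left out; fits without samples 1 and 4, and alternatives for single rows, were added after seeing the data.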

Additional observations from a re-analysis of the deposited data

How the results depend on the processing

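Over 157 alternative fits of the 9 HDAC genes, 0 brought a gene past the threshold (limma adjusted p 0.573 to 1.00 over the alternatives), 129 kept the direction and 28 reversed it. Not all of the 157 could have turned a sign. The second deposited table was identical to the first, and the variance model and the filter on dim genes leave a difference unchanged. Choosing among rows changes nothing for a gene with 1 row, nor does taking the median for a gene with 2 rows. HDAC6, HDAC10 and HDAC11 kept their direction in every alternative run. For HDAC11, whose groups did not overlap, leaving samples out could not have turned it. With each sample left out, the differences ran from -0.41 to 0.13 for HDAC3, 0.013 to 0.64 for HDAC8, -0.68 to 0.45 for HDAC4, -0.094 to 0.044 for HDAC5, -0.12 to 0.050 for HDAC7, -0.13 to 0.10 for HDAC9, -0.37 to -0.11 for HDAC6, 0.20 to 0.39 for HDAC10 and -0.45 to -0.28 for HDAC11. Within Cy3 the sign turned for HDAC4 (-0.21), HDAC5 (0.10), HDAC7 (0.076) and HDAC9 (0.24), and within Cy5 for HDAC3 (0.60) and HDAC8 (-0.41). With the brightest row per gene it turned for HDAC8 (-0.92), HDAC7 (0.12) and HDAC9 (0.10), with array weights for HDAC4 (-0.34) and HDAC9 (0.013), and without samples 1 and 4 for HDAC5 (0.066), HDAC7 (0.0074) and HDAC9 (0.0058). The cause was not tested. Within 1 dye, 1 arm has 1 sample, assumed to vary like the other. The filter on dim genes left no value for HDAC4, HDAC5, HDAC8, HDAC9 and HDAC10. The 5 HDAC8 and HDAC11 rows examined singly kept their direction in every alternative run, but they were picked after seeing the data. The variance model and the filter could not have turned these rows either. For NM_001166420 and NM_024827, whose groups did not overlap, leaving samples out could not have turned the sign. Rows outside these 5 did turn, such as the HDAC9 rows NM_014707 and NM_058176 without samples 1 and 4.

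Across the array, limma called 0 genes, but 4 within Cy3, 88 when a 2-fold difference and an unadjusted p under 0.05 were required, and 0 to 3 with each sample left out (3 without control sample 2, 1 without sample 6). Of array rows it called 0, and 0 to 4 with each sample left out (4 without control sample 2, 1 without sample 4, 2 without sample 6). Between the dyes it called 66 genes, and 105 after a further quantile normalisation, 138 among genes above the median level, 282 with a trended robust variance, and 1 to 35 with each sample left out. No HDAC gene was among the calls between the siRNA groups. No paired analysis was possible because the sample numbers run from 1 to 6 and no number is shared between the groups.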

Other observations

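Of the 9 HDAC9 rows, 3 read lowest in control sample 1. After subtracting the mean of each row, NM_058176 and NM_001204148 differed by an RMS of 0.24 over 6 samples, the smallest of the HDAC9 pairs, and both read lowest in control sample 1 (6.24 and 5.90). For HDAC8 the closest pair was NM_018486 and NM_001166418, at 0.46, and for HDAC11 its 2 rows differed by 0.18. Whether the features behind these rows cover the same stretch of transcript was not tested, as their sequences were not used here.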
